A study of Homo sapiens with 6 samples.

Results

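Small nucleolar RNA host genes (SNHG genes and GAS5) are long noncoding RNA genes whose introns carry small nucleolar RNAs (snoRNAs). The list held 10 such genes, SNHG1, SNHG3, SNHG5, SNHG6, SNHG7, SNHG8, SNHG12, SNHG15, SNHG29 and GAS5, and its members were every probe set whose platform gene symbols include one of them. Of the 49372 probe sets on the arrays, 15 met this rule, and they represented 6 of the 10 genes, among 19605 gene symbols named on the arrays. In 9 of the 15 the host symbol stood alone, and in the other 6 it stood beside a snoRNA symbol, so these are given apart. SNHG3, SNHG5, SNHG6 and GAS5 were named for 0 probe sets by symbol, gene identifier or RefSeq accession and were not analysed here. The list was selected on the SATalpha minus GFP log2 differences of these same arrays, so those differences are described below. Calls that the fits over all probe sets or genes gave to members are description too, not a test of the members.

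The series compared 3 SATalpha arrays, from cells given a plasmid with GFP and satellite alpha repeats, with 3 GFP arrays, from cells given the GFP plasmid. All cells were of the human line ARPE-19, which derives from retinal pigment epithelium, and were transfected in 6-well plates with 2.5 µg of plasmid per well. The labels state triplicates without saying whether wells came from separate cultures, so the spread between arrays may be partly technical. No sequence, promoter or copy number of either plasmid is given in the sources used here, and with no scan date given, batch and group cannot be told apart.

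The host RNA and the snoRNA have separate fates. Splicing frees the snoRNAs from the introns, and they go to the nucleolus, where box C/D snoRNAs (SNORD) guide ribose methylation and box H/ACA snoRNAs (SNORA) guide pseudouridylation of ribosomal RNA. The spliced host RNA goes to the cytoplasm, where many host RNAs are translated briefly and destroyed by nonsense-mediated decay, and several begin with the 5′ terminal oligopyrimidine (TOP) tract that ribosomal protein mRNAs also carry. Arrays of this kind label RNA from its poly(A) tail, which mature snoRNAs lack.

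By RefSeq gene positions, the 10 host genes contain 36 snoRNA genes, from 1 each in SNHG6, SNHG8 and SNHG15 to 11 in GAS5. SNHG12 contains SNORD99, SNORA61, SNORA44 and SNORA16A, SNHG1 contains 9 snoRNA genes including SNORD22, and SNHG29 contains SNORD49A, SNORD49B and SNORD65. SNHG7 contains SNORA17A and SNORA17B, SNHG8 contains SNORA24, and SNHG15 contains SNORA9. Of the 36 snoRNAs, 6 were named on the arrays, and those 6 are the ones that share a member probe set.

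The start sites of the hosts are shown because the TOP tract is the sequence feature the family is known for, and because SNHG12, described first below, had the longest pyrimidine run. Each line gives 60 bases around the start annotated by RefSeq (GRCh38.p14, 30 before it and 30 from it), on the minus strand of the reference in all 4 genes, with the unbroken pyrimidine run from the start in capitals. The windows are chr1:28581844-28581903 for SNHG12, chr6:85678704-85678763 for SNHG5, chr9:136728155-136728214 for SNHG7 and chr11:62855856-62855915 for SNHG1.
SNHG12: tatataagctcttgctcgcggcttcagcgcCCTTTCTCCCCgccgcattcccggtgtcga
SNHG5: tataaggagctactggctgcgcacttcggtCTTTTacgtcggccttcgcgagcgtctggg
SNHG7: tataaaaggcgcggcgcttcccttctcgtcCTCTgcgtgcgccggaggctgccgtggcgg
SNHG1: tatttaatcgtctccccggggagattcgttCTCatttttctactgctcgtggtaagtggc
SNHG12 began with a run of 11 pyrimidines, SNHG5 with 5, SNHG7 with 4 and SNHG1 with 3. SNHG8 began with 1, and at the annotated starts of SNHG29, SNHG3 and GAS5 the first base was a purine. A C at the start followed by at least 4 pyrimidines was present in 2 of the 8 hosts whose promoter window was used, SNHG12 and SNHG5. It was present in 4.07% of all 35116 promoter windows. Each run was counted from the annotated start base alone, and the starts used in these cells were not measured. The count therefore does not say which hosts carry a TOP tract in these cells.

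The full promoter window of SNHG12 is printed because its probe sets held the largest member differences, in opposite directions. It covers chr1:28581824-28582123 on the minus strand, from 250 bases before the start to 50 after, with the same run in capitals.
SNHG12: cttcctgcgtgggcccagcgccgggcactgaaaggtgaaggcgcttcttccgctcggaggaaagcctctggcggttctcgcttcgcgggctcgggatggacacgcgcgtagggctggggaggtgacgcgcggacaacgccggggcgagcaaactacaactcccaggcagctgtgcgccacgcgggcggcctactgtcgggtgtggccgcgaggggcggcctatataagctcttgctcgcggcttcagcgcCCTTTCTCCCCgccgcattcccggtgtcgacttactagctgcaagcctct
Promoter windows were also searched on both strands for an E-box, an ETS core, a CCAAT box and a TATA box, each as 1 exact string. The SNHG12 window did not hold these exact strings, which says nothing of other forms, such as the TATA-like letters that open its printed start window. Among the 8 hosts, the E-box letters CACGTG were in the window of SNHG7 (7.26% of all windows), the ETS core letters CCGGAA in that of SNHG8 (17.2%), the letters CCAAT in those of SNHG5, SNHG29 and GAS5 (34.6%) and the TATA box letters TATAAA in those of SNHG7 and SNHG1 (11.5%).

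SNHG12 differed most between the groups, and its probe sets went opposite ways. Its probe set 11753858_a_at had log2 signals of 10.11, 10.09 and 10.14 on the SATalpha arrays, against 10.92, 11.01 and 10.88 on the GFP arrays. The other probe set with SNHG12 alone, 11753859_x_at, had 9.34, 9.27 and 9.34 on the SATalpha arrays, against 10.26, 10.27 and 10.10 on the GFP arrays. In both, the 3 SATalpha values lay below the 3 GFP values, with gaps wider than the spread within a group.

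The first of them averaged 10.11 ± 0.02 with satellite alpha and 10.94 ± 0.06 with GFP (SD, n = 3 each), a log2 difference of -0.82 (SE 0.04, limma's moderated SE as elsewhere) and a ratio of 0.565. The second averaged 9.32 ± 0.04 with satellite alpha and 10.21 ± 0.10 with GFP, a difference of -0.89 (SE 0.05) and a ratio of 0.538. Of the 49293 probe sets that are not Affymetrix controls, they ranked 47 and 32 from the most negative difference. In bulk RNA, fewer expressing cells and less RNA per cell cannot be told apart.

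The probe set shared by SNHG12 and SNORA16A, 11757142_s_at, went the other way. It had 11.15, 11.20 and 11.17 on the SATalpha arrays, against 10.37, 10.27 and 10.38 on the GFP arrays, so again the groups did not overlap. It averaged 11.17 ± 0.02 with satellite alpha and 10.34 ± 0.06 with GFP (SD, n = 3 each), a difference of 0.83 (SE 0.04), a ratio of 1.78 and rank 30 from the most positive difference. The suffix s_at marks a probe set that can match transcripts of several genes, and x_at one with probes that can match other sequences.

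The other SNHG12 probe sets that name a snoRNA did not separate the groups. The probe set shared with SNORA61, 11757156_s_at, had 7.20, 7.22 and 7.33 on the SATalpha arrays, against 7.37, 7.24 and 7.11 on the GFP arrays, a difference of 0.01 (SE 0.07). The probe set shared with SNORA44, 11757153_x_at, had 2.75, 2.90 and 3.19 on the SATalpha arrays, against 2.95, 2.71 and 2.74 on the GFP arrays, a difference of 0.14 (SE 0.13). The signals of the SNORA44 probe set are low for these arrays, whose medians lay between 5.29 and 5.32.

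**Figure D1:**
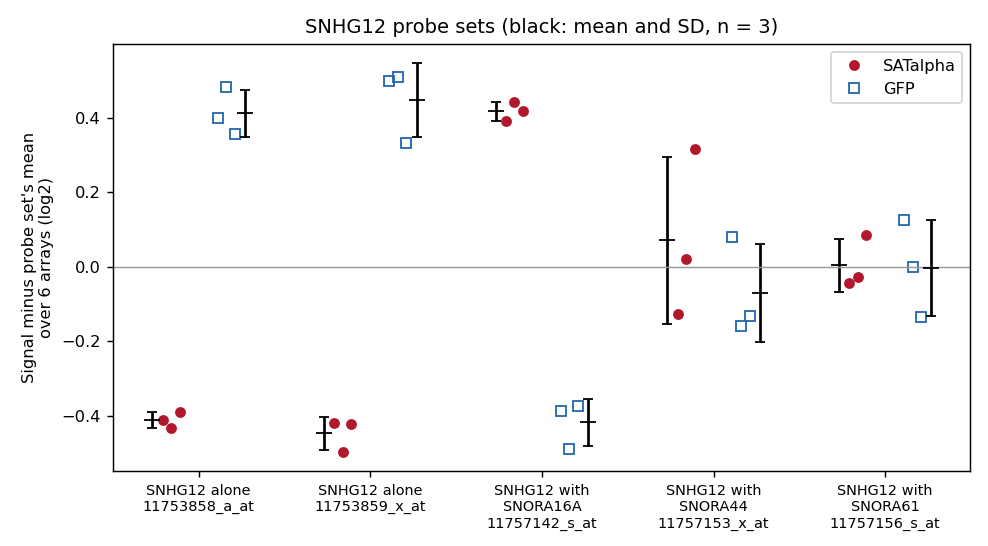
The 5 SNHG12 probe sets, each array's log2 signal minus the probe set's mean over the 6 arrays, with SATalpha as filled circles left of GFP as open squares and the mean and SD (n = 3) in black. The probe sets with SNHG12 alone were lower with satellite alpha (differences of -0.82 and -0.89), the one shared with SNORA16A was higher (0.83), and those shared with SNORA44 and SNORA61 overlapped.

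TRNAU1AP, which encodes a protein that binds selenocysteine tRNA, overlaps SNHG12 in RefSeq and was looked at after the SNHG12 values were seen. In its brightest probe set the difference was -0.04 (SE 0.05, limma adjusted p = 0.634 over genes). One of its other probe sets, 11756582_a_at, fell by 0.21 (limma over probe sets, adjusted p = 0.0272), a call lost without the mean-variance trend (adjusted p = 0.131) and without SATalpha replicate 3 or any 1 GFP array (-0.23 to -0.17). The remaining one, 11726036_at, differed by 0.12 (adjusted p = 0.442).

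SNHG8 was lower by a small margin in both of its probe sets. With the host symbol alone it had 11.48, 11.54 and 11.29 on the SATalpha arrays, against 11.61, 11.55 and 11.74 on the GFP arrays, a difference of -0.20 (SE 0.06). The highest SATalpha value and the lowest GFP value were 11.54 and 11.55, so the groups only just stood apart. The probe set shared with SNORA24 had 10.60, 10.66 and 10.64 on the SATalpha arrays, against 10.78, 10.74 and 10.81 on the GFP arrays, a difference of -0.14 (SE 0.04).

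SNHG29, also known as LRRC75A-AS1, had the brightest member probe sets, 2 of which differed alike. The first, 11727496_x_at, had 12.39, 12.37 and 12.30 on the SATalpha arrays, against 12.48, 12.43 and 12.52 on the GFP arrays, a difference of -0.12 (SE 0.04). The second, 11756740_a_at, had 12.33, 12.37 and 12.22 on the SATalpha arrays, against 12.42, 12.38 and 12.49 on the GFP arrays, a difference of -0.13 (SE 0.04). The groups did not overlap in either, although the closest values were 12.37 on a SATalpha array and 12.38 on a GFP array. The third SNHG29 probe set was dim, averaging 2.47 ± 0.15 with satellite alpha and 2.30 ± 0.05 with GFP (SD, n = 3 each), and its groups overlapped (difference 0.17, SE 0.10).

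SNHG7 differed only in the probe set it shares with SNORA17B. That probe set had 8.11, 8.01 and 8.10 on the SATalpha arrays, against 8.41, 8.32 and 8.21 on the GFP arrays, with every SATalpha value below every GFP value and a difference of -0.24 (SE 0.06). With the symbol alone, 11755133_x_at had 9.70, 9.78 and 9.83 on the SATalpha arrays, against 9.82, 9.91 and 9.81 on the GFP arrays, a difference of -0.08 (SE 0.05). The dimmer 11754956_at averaged 5.79 ± 0.15 with satellite alpha and 5.79 ± 0.10 with GFP (SD, n = 3 each), a difference of -0.0018 (SE 0.10). In both the groups overlapped.

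SNHG1, the host with the most snoRNA genes among those measured, overlapped between groups. It had 9.62, 9.83 and 9.60 on the SATalpha arrays, against 9.59, 9.62 and 9.71 on the GFP arrays, a difference of 0.05 (SE 0.06). SNHG15 was measured only through the probe set it shares with SNORA9, which was dim. It averaged 2.74 ± 0.22 with satellite alpha and 2.91 ± 0.24 with GFP (SD, n = 3 each), a difference of -0.17 (SE 0.14), and the groups overlapped.

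**Figure D2:**
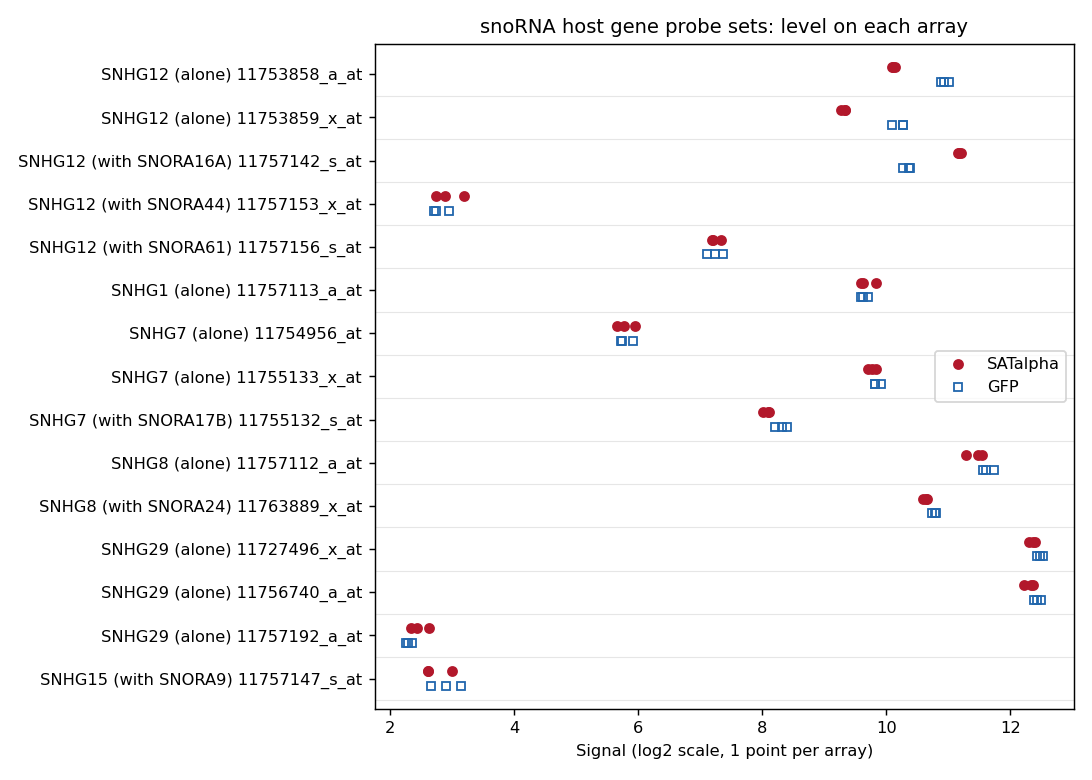
Log2 signal of the 15 member probe sets on each of the 6 arrays, SATalpha as filled circles above GFP as open squares, 1 point per array. The groups are far apart in 3 SNHG12 probe sets, apart by small margins in 5 others, and overlapping in 7, and 3 probe sets lie below 5.19.

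Across all 15 member probe sets, 10 differences were below 0 and 5 above, and the groups did not overlap in 8, of which 7 were lower with satellite alpha and 1 higher. Over all probe sets the groups did not overlap in 26%, with 13.4% lower and 12.6% higher. In limma's fit over all probe sets, with Benjamini-Hochberg adjustment and a threshold of 0.05, 5 member probe sets were past the threshold on the lower side and 1 on the higher side, while 8.36% of all probe sets were past it, 4.19% lower and 4.18% higher. Those past it were 11753858_a_at, 11753859_x_at and 11757142_s_at of SNHG12, 11755132_s_at of SNHG7, 11763889_x_at of SNHG8 and 11727496_x_at of SNHG29. Under 10 alternative settings, which include leaving out 1 array, each SNHG12 call held in all 10. The SNHG7 and SNHG8 calls held in 4 of 10 each and the SNHG29 call in 2 of 10. As the contrast was known when the list was made, nothing is read from these counts or calls. The median difference was -0.12 over the members and -0.00029 over all probe sets.

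When each gene was represented by its brightest probe set with 1 symbol, 5 host genes were above the floor, a mean log2 level of 5.19 that left out the lowest 40% of genes. Of the 10879 genes in that fit 20.8% were past the threshold (13% lower, 7.72% higher), and so were 3 of the 5 hosts, SNHG12, SNHG8 and SNHG29, on the lower side. SNHG8 was represented there by 11757112_a_at, which was not past the threshold in the fit over probe sets. The host count too is a description of values that the choice of the list used, and nothing is read from it. The member count was 3 probe sets, all of SNHG12, without SATalpha replicate 1 and also without GFP replicate 1. The host gene count was 1 without GFP replicate 1 or without GFP replicate 3.

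By array profile, the tested genes most like SNHG12, here its probe set 11753858_a_at, were UBE2S, SRPRA and NBAS. Their root mean square distances over the 6 arrays were 0.04 on the log2 scale, after each gene was centred on its own mean. UBE2S, a ubiquitin-conjugating enzyme of the anaphase-promoting complex, averaged 9.85 ± 0.06 with satellite alpha and 10.62 ± 0.07 with GFP (SD, n = 3 each). SRPRA, a subunit of the signal recognition particle receptor, averaged 8.63 ± 0.03 and NBAS, which takes part in Golgi-to-endoplasmic reticulum transport and in nonsense-mediated decay, 9.09 ± 0.06 with satellite alpha, against 9.50 ± 0.08 and 9.91 ± 0.01 with GFP. As likeness was taken over both groups, it mostly reflects the size of the group difference.

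Among other noncoding snoRNA hosts, EPB41L4A-AS1, the host of SNORA13, fell. It had 9.43, 9.37 and 9.51 on the SATalpha arrays, against 9.90, 9.90 and 9.79 on the GFP arrays, a difference of -0.43 (SE 0.05, limma adjusted p = 4.26e-05). Of the 21 genes of this list 5 were tested, and EPB41L4A-AS1 was the 1 that passed, with 0 higher and 4 not past the threshold. That is 20% of the list, near the 20.8% of all tested genes, and the median difference was -0.08 against -0.02 over all tested genes. The others, named after their values were seen, were SNHG32 (-0.11, adjusted p = 0.0854), ZFAS1 (-0.08, adjusted p = 0.259), SNHG9 (-0.07, adjusted p = 0.508) and SNHG11 (0.04, adjusted p = 0.752). Without SATalpha replicate 3 or without GFP replicate 3, 2 genes of the list passed, the second being SNHG32 (-0.13 and -0.16).

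Of 41 tested protein-coding snoRNA hosts, 1 fell, 4 rose and 36 did not pass (median 0.02), so 12.2% passed against 20.8% of all tested genes. The gene that fell was TAF1D, which encodes a subunit of the selectivity factor of RNA polymerase I. It had 8.10, 7.89 and 8.03 on the SATalpha arrays, against 8.81, 8.70 and 8.65 on the GFP arrays, a difference of -0.72 (SE 0.06, limma adjusted p = 4.16e-06). Its 5 other probe sets, each shared with snoRNAs of its introns (SNORA8, SNORA18, SNORA25, SNORA32, SNORA40), differed by -0.04 to 0.21, and 0 of the 5 passed in limma's fit over probe sets. Their limma adjusted p-values ran from 0.167 to 0.913, and 1 of the 5, the probe set shared with SNORA40, had an unadjusted p under 0.05.

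**Figure D3:**
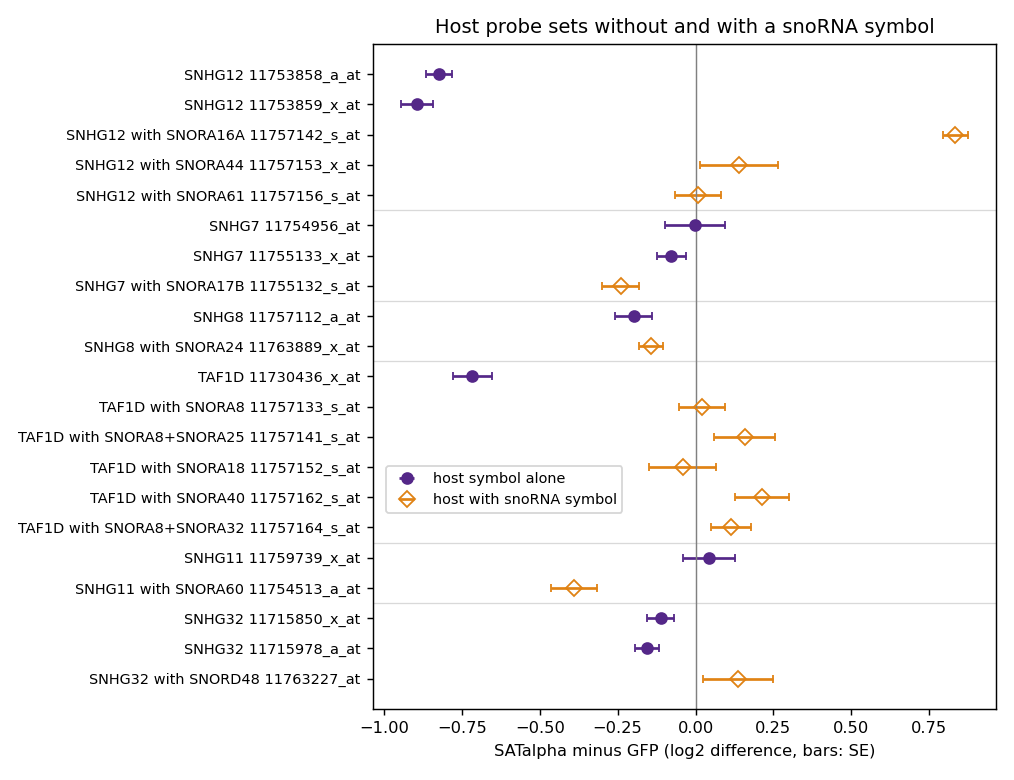
SATalpha minus GFP log2 differences with SE for probe sets that name a host alone (filled circles) or with a snoRNA (open diamonds), for 6 host genes. In SNHG12 and TAF1D the host-alone probe sets lie between -0.72 and -0.89 and the snoRNA-sharing ones between -0.04 and 0.83, whereas in SNHG8 both kinds lie below 0 and in SNHG11 the host-alone probe set is at 0.04 and the shared one at -0.39.

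The protein-coding hosts that rose did so by less. DKC1, the pseudouridine synthase of H/ACA particles, rose by 0.18 (SE 0.04, limma adjusted p = 0.00837). TPT1, a translationally controlled protein, rose by 0.17 in its brightest probe set (adjusted p = 0.00178), but the remaining 3 probe sets had differences between -0.06 and 0.02, and the mean of all its probe sets by 0.02 (adjusted p = 0.691). CHD8, a chromatin remodeller, rose by 0.20 (adjusted p = 0.0329), a call lost without SATalpha replicate 1 or 2 or any 1 GFP array (0.17 to 0.22). The mitochondrial chaperone HSPA9, named after its value was seen, rose by 0.15 (adjusted p = 0.0370), a call lost without any 1 array except SATalpha replicate 3 or GFP replicate 3 (0.13 to 0.15), with quantile normalization (adjusted p = 0.0503), with no filter (0.0522) and without the mean-variance trend (0.133). The list's count was 3 without SATalpha replicate 2 and 3 without GFP replicate 1.

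SNHG11 and SNHG32 also have probe sets shared with a snoRNA, which were looked at after their values were seen. The probe set of SNHG11 and SNORA60 had 6.56, 6.61 and 6.74 on the SATalpha arrays, against 6.96, 7.11 and 7.01 on the GFP arrays, and fell by 0.39 (SE 0.07, limma adjusted p = 0.00411 over probe sets). That of SNHG32 and SNORD48 differed by 0.14 (SE 0.11, adjusted p = 0.550). The second SNHG32 probe set with that symbol alone, 11715978_a_at, fell by 0.16 (limma over probe sets, adjusted p = 0.0254), a call lost without the mean-variance trend (adjusted p = 0.242) and without SATalpha replicate 2 or GFP replicate 1 or 2 (-0.14 in each).

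Probe sets that name only snoRNAs or the related Cajal body RNAs numbered 65, and SNORD17 was the 1 that passed, a share of 1.54% against 8.36% of all probe sets. It had 6.29, 6.12 and 6.19 on the SATalpha arrays, against 5.66, 5.64 and 5.65 on the GFP arrays, and rose by 0.55 (SE 0.08, limma adjusted p = 0.000839). The other 64 did not pass. The mean levels of the 65 probe sets ran from 2.12 to 7.37 with a median of 4.01, and their median difference was 0.07.

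RNAs that encode proteins of the snoRNA particles had small differences. Of 19 tested members of the list of core proteins and assembly factors, 3 rose, 1 fell and 15 did not pass (median 0.01). The share that passed, 21.1%, was near the 20.8% of all tested genes. NOLC1, a nucleolar chaperone of snoRNA particles, rose by 0.17 (SE 0.04, limma adjusted p = 0.00659), and DKC1, in this list too, rose as given above. GAR1, a core protein of H/ACA particles, rose by 0.21 (adjusted p = 0.0345), a call lost without SATalpha replicate 1 or 2 or GFP replicate 1 or 2 (0.15 to 0.22), and also without the mean-variance trend (adjusted p = 0.110). SHQ1, the assembly chaperone of DKC1, fell by 0.23 (adjusted p = 0.0328). Leaving out any 1 array except SATalpha replicate 3 ended that call (-0.24 to -0.19), as did the mean of its probe sets (-0.14, adjusted p = 0.0813) and no filter on low genes (adjusted p = 0.0507). The list's count was 7 without SATalpha replicate 3, and 2 without SATalpha replicate 1, SATalpha replicate 2 or GFP replicate 1.

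Factors of nonsense-mediated decay, which degrades many host RNAs, were looked at next. The list did not include NBAS, given above for its likeness to SNHG12. Of 13 tested, 2 rose, 3 fell and 8 did not pass (median 0.02), which is 38.5% past the threshold against 20.8% of all tested genes (13% lower, 7.72% higher). MAGOH, a core protein of the exon junction complex, rose by 0.24 (SE 0.05, limma adjusted p = 0.00209), and 3 further MAGOH probe sets had differences between 0.31 and 0.46. SMG6, the endonuclease of the pathway, fell by 0.34 (adjusted p = 0.00916), EIF4A3, the helicase of the exon junction complex, by 0.15 (adjusted p = 0.0105) and SMG9, a regulator of the kinase SMG1, by 0.22 (adjusted p = 0.0111). SMG8, the partner of SMG9, named after its value was seen, rose by 0.15 (adjusted p = 0.0372), a call lost without any 1 array except SATalpha replicate 3 (0.13 to 0.17), with no filter (adjusted p = 0.0552) and without the mean-variance trend (0.0729). Without GFP replicate 1 the count was 1, and SMG6 (-0.31), EIF4A3 (-0.14) and SMG9 (-0.20) lost the call. EIF4A3 also lost it without the mean-variance trend (adjusted p = 0.0502).

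**Figure D4:**
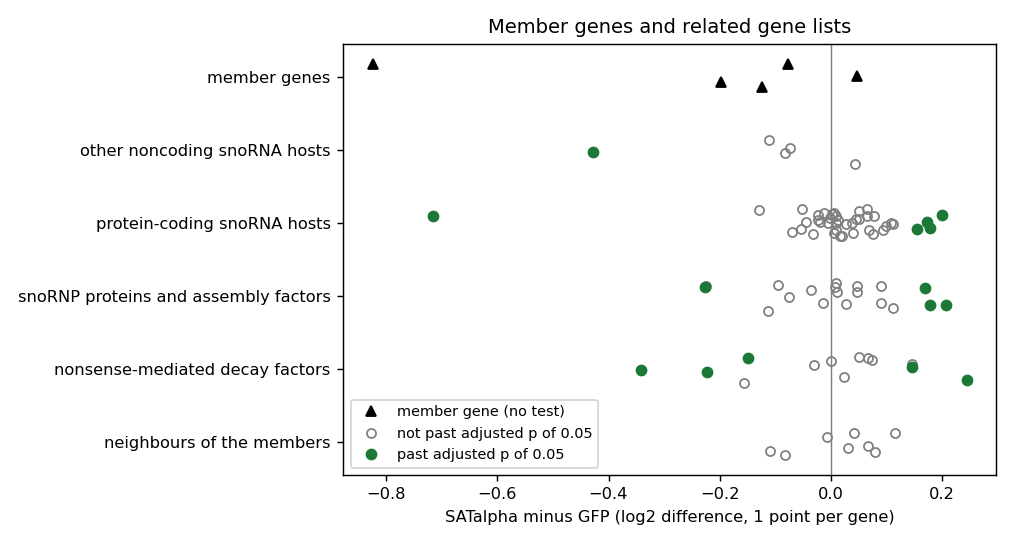
SATalpha minus GFP log2 differences of the 5 member genes (triangles, calls not shown) and of tested genes in 5 related lists (circles). Each point is 1 gene, and circles are filled where limma's adjusted p was under 0.05. SNHG12 (-0.82), TAF1D (-0.72) and EPB41L4A-AS1 (-0.43) stand left of the others, and 0 of 8 neighbours passed, against 20.8% of all tested genes. Each gene is its brightest 1-symbol probe set, which leaves out the SNHG12 probe set shared with SNORA16A (0.83).

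Genes next to the hosts were compared because several hosts share a promoter region with a neighbour. Of 8 tested nearest neighbours in RefSeq, 0 passed limma's threshold, against 20.8% of all tested genes, and 2 had an unadjusted p under 0.05. These were WDR74, a ribosome assembly factor beside SNHG1 (-0.11, adjusted p = 0.120), and RCC1, the exchange factor of the GTPase Ran beside SNHG12 and overlapping SNHG3 (0.11, adjusted p = 0.124, and 0.01 in its other probe set). SLC3A2, an amino acid transporter subunit on the other side of SNHG1, averaged 10.85 ± 0.06 with satellite alpha and 10.86 ± 0.02 with GFP (SD, n = 3 each). RAB42, MYO1G and PRSS12, with mean levels of 5.21, 5.42 and 5.42, lay near the floor of 5.19, which limits the count of 0. PHACTR4 neighbours only SNHG3, which was not measured.

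Arrays resembled those of their own group more than those of the other. Correlations across probe sets, which are not independent replicates, lay between 0.9963 and 0.9974 for arrays of the same group and between 0.9950 and 0.9961 for arrays of different groups. The 3′ minus 5′ difference of the GAPDH control, a sign of RNA quality, was 0.346 to 0.471 on the SATalpha arrays and 0.342 to 0.432 on the GFP arrays, so the groups overlapped. Of 12 retinal pigment epithelium markers, 6 were above the floor, among them KRT18, KRT8, OTX2 and MITF, while RPE65, BEST1, RLBP1, TYRP1, LRAT and MERTK were below it. KRT18 fell by 0.21 (limma adjusted p = 0.000675) and KRT8 by 0.13 (adjusted p = 0.0266), while MITF (-0.09), OTX2 (-0.05), PMEL (0.09) and TYR (-0.10) did not pass. The other 7 KRT8 probe sets had differences between -0.12 and 0.30, and the mean of all KRT8 probe sets differed by -0.03 (adjusted p = 0.834). The KRT8 call was also lost without the mean-variance trend (adjusted p = 0.116) and without SATalpha replicate 1 or 2 or GFP replicate 1 or 3 (-0.15 to -0.10). Of the markers of leukocytes, endothelium and neurons, CD68, PECAM1, VWF and SNAP25 were above the floor and 0 of these 4 passed by limma, or at an unadjusted p under 0.05. The part of these markers in the host gene values was not tested.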

How the data were processed

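RNA of 6 samples was labelled with the Affymetrix 3′ IVT PLUS reagents and hybridised to 1 array each, per the labels' protocols. The deposited values are log2 signals that the authors had already normalized between arrays. Both MAS5 and RMA appear in the submitters' processing notes, and it is not stated which of them produced the values or with what versions. The base of the logarithm was read from the values. No genome build is named for them, and no detection call was used, so the number of arrays limits the precision.

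Of 49372 probe sets, 79 Affymetrix controls were left out. The platform annotation gave 1 symbol to 44988 of the rest, several to 1832 and none to 2473. SATalpha minus GFP was fitted with limma 3.58.1 in R 4.3.3 (lmFit, eBayes with a mean-variance trend, Benjamini-Hochberg adjustment, threshold 0.05). One fit held all 49293 probe sets. The other held 10879 of 18132 genes, each by its brightest 1-symbol probe set, without the lowest 40% by mean. Both were tested on simulated data.

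The members and lists were chosen with earlier results of these data known. Every member is named, and from each other list up to 4 genes past the threshold by smallest p, or 2 as values where none passed. Genes overlapping the members, and probe sets shared by a snoRNA and another gene, were added after seeing the data. RefSeq tables (GRCh38.p14) gave gene positions for all 10 hosts and promoter windows, of which those of 8 hosts were used. Hosts on chromosome 8, here SNHG6, were left out of the promoter windows by choice, and SNHG15 had no promoter entry.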

Additional observations from a re-analysis of the deposited data

How the results depend on the processing

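The differences of the members change under quantile normalization and when an array is left out, and the other settings keep them by construction, so they are no measure of stability. With a replicate block, 1 member gene (main 3), 3 member probe sets (main 6) and 3 decay factors (main 5) passed. So did 3 protein-coding hosts (main 5) and 2 genes of snoRNA particle proteins (main 4). Over all features the block left 1300 of 2259 genes and 2328 of 4123 probe sets. Same-numbered arrays deviated with correlations of -0.0061, -0.12 and -0.14, so the numbers give no pairing. Without the mean-variance trend, 1 member gene, 3 member probe sets and 3 decay factors passed, and 1321 probe sets in all. With the mean of all probe sets, 2 other noncoding hosts (main 1) and 8 protein-coding hosts passed. Leaving out 1 array at a time kept neighbours at 0 and snoRNA-named probe sets at 1. It gave 1 to 3 member genes, 3 to 6 member probe sets and 1 to 6 decay factors. It also gave 1 to 2 other noncoding hosts, 3 to 7 protein-coding hosts and 2 to 7 genes of particle proteins. Over all genes it gave 1209 (without GFP replicate 1) to 2527 (without SATalpha replicate 3), and over all probe sets 1967 to 4325 (the same arrays), with fewer samples in each fit. Of 177 values of the 15 genes that the naming rule gave, 151 kept their side of the threshold, 26 kept their direction but lost the call, and 0 calls reversed. For 10 genes and 6 probe sets named outside that rule, whose alternatives were added after seeing the data, 141 of 178 values kept their side, 34 lost the call (HSPA9, SMG8, KRT8 and a probe set each of SNHG32 and TRNAU1AP), 3 gained it (SNHG32) and 0 calls reversed. The block also ended the calls of CHD8, EIF4A3, GAR1 and SHQ1. Among genes named outside the rule, it ended those of HSPA9, SMG8 and KRT8 (limma adjusted p = 0.111, 0.0938 and 0.0596). Dim probe sets such as that of SNHG15 limit what could be seen.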

Other observations

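Across the array, 41 probe sets name a snoRNA together with another gene and no member. They include the shared probe sets of TAF1D, SNHG11 and SNHG32 given above. In limma's fit over probe sets 3 of the 41 passed, 1 higher and 2 lower. That is 7.32%, near the 8.36% of all probe sets. The probe set of EEF1B2, a translation elongation factor subunit, and SNORA41, 11757149_at, had a difference of 0.42 (SE 0.09, limma adjusted p = 0.00726), and a second probe set with the same symbols, 11757150_x_at, had 0.34 (SE 0.13, adjusted p = 0.129). The probe set of EIF4G2, a translation initiation factor, and SNORD97, 11757168_at, averaged 3.14 over the 6 arrays and had a difference of -0.49 (SE 0.11, adjusted p = 0.00974), while its companion 11757169_x_at had -0.20 (SE 0.11, adjusted p = 0.312). The remaining lower one was the probe set of SNHG11 and SNORA60. Probe sets with the symbol EEF1B2 alone differed by -0.0025 and -0.03, and those with EIF4G2 alone by -0.02 to 0.03. All these probe sets were named after their values were seen.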
